A study of Mus musculus with 6 samples.

Results

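En1, Wnt7a and Lmx1b pattern the dorsal to ventral axis of the vertebrate limb. They were taken as the 3 rows of the deposited table with these gene symbols, out of 49452 genes. The transcriptome of forelimb bud ectoderm, the epithelium that covers the bud, was measured by RNA-seq in mouse embryos at E10.5, in 3 Sp8 null and 3 wild-type embryos. Wild-type embryos came from inbred C57BL/6 parents, and null embryos from parents heterozygous for the Sp8-Cre-ERT2 allele. Both groups carry the strain label C57BL6J, and no drug treatment is named for either. Since the groups came from different crosses, cross and genotype cannot be told apart. A library holds the pooled ectoderm of the left and right forelimb of a single embryo, taken off with forceps after 20 min in 0.25% trypsin.

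In the limb bud, Wnt7a is a secreted Wnt ligand of the dorsal ectoderm. It acts on the mesenchyme below, where it induces Lmx1b, a LIM homeobox transcription factor that specifies dorsal fate. En1, a homeobox repressor of the ventral ectoderm, is induced by BMP signalling and keeps Wnt7a out of the ventral side. Sp8, a zinc finger factor of the Sp family, is known for its role in the apical ectodermal ridge at the border between dorsal and ventral ectoderm.

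En1 (ENSMUSG00000058665) lies on chromosome 1 at 120602418 to 120607992, plus strand, in GRCm38 coordinates of the GENCODE M21 annotation. Wnt7a (ENSMUSG00000030093) lies on chromosome 6 at 91363981 to 91411363 and Lmx1b (ENSMUSG00000038765) on chromosome 2 at 33560965 to 33640511, both on the minus strand. All 3 genes are protein-coding, and none of their exons shares a base with an exon of another annotated gene. Sp proteins are known to bind GC-rich boxes, so the stretch before the annotated start of each gene is printed here, from RefSeq promoters of GRCm38.p6, 5′ to 3′ on the strand of the gene and ending before both the RefSeq and the GENCODE start. Capitals mark the GC box GGGCGG or its reverse complement CCGCCC. The stretches are chr1:120602237-120602417 for En1, chr6:91411364-91411603 for Wnt7a and chr2:33641099-33641348 for Lmx1b.
En1: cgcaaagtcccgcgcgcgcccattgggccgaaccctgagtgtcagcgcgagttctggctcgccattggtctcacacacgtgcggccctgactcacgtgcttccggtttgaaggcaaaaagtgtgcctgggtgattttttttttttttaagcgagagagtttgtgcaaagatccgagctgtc
Wnt7a: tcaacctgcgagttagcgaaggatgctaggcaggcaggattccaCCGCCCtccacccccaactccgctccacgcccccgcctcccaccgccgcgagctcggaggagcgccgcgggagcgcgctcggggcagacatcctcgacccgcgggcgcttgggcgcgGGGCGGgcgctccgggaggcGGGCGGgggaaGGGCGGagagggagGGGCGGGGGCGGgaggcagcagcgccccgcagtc
Lmx1b: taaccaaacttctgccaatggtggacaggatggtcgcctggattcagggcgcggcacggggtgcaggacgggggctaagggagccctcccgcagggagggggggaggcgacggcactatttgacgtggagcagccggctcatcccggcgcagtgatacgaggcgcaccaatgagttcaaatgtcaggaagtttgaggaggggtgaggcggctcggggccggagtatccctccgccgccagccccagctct
Wnt7a holds 6 GC boxes in its stretch of 240 bases. En1 and Lmx1b hold 0 in stretches of 181 and 250 bases, nor does either hold one in the 250 bases before its RefSeq start. The Lmx1b stretch stops at 33641099, upstream of its GENCODE start at 33640511, and the bases between lie outside the stretch. G and C made up 55.2% of the stretch for En1, 77.1% for Wnt7a and 65.2% for Lmx1b. Of 32851 RefSeq promoter windows of 250 bases, 32.7% hold at least 1 GC box. The motif CACCC or its reverse complement GGGTG was found 1 time for En1, 1 time for Wnt7a and 2 times for Lmx1b, and 52.0% of the windows hold it. No GC box overlapped a CACCC match. These matches describe the letters, and binding of Sp8 was not measured in these libraries.

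Levels are in FPKM, a fragment count divided by transcript length and library size, so levels can be compared between genes per length. Where 3 values are given for a genotype, they stand in the order of embryos 1, 2 and 3. Differences were tested on log2(FPKM + 1) with limma across 12133 genes that reached 1 FPKM in at least 3 libraries, and a gene is called where the Benjamini-Hochberg adjusted p is under 0.05. Fold changes on this scale understate the change of genes with low values. Relative depth, from the steps between low values, was 0.841 to 1.04 times that of wild-type embryo 1. Sp8 itself was at 0.460 to 1.14 FPKM in the null libraries and at 8.35 to 13.5 FPKM in the wild-type libraries, so each library followed its label. Ectoderm markers had a summed level of 964 to 1240 FPKM in null and 1156 to 1275 FPKM in wild type, and all 15 were past the filter. The lowest sum was that of null embryo 2. Of the 15 markers, 4 were lower and 1 was higher in every null library than in every wild-type library. Replicates were separate embryos. In bulk tissue, fewer cells of a type and less RNA per cell cannot be told apart.

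En1 fell in the absence of Sp8. Its level was 9.12, 12.3 and 12.2 FPKM in the wild-type libraries and 2.80, 1.66 and 4.02 FPKM in the null libraries. Every null library was below every wild-type library, with the lowest value in null embryo 2. The means were 11.2 ± 1.82 FPKM in wild type and 2.83 ± 1.18 FPKM in Sp8 null (SD, n = 3 each), a ratio of 3.97. The log2 fold change was -1.71 (SE 0.23, 95% interval -2.24 to -1.18; limma adjusted p = 0.00634). It was the fall of rank 57 among the tested genes.

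Wnt7a, which En1 is known to repress, also fell. The wild-type libraries had 28.5, 37.4 and 31.6 FPKM, and the null libraries had 16.3, 12.2 and 20.0 FPKM. The groups did not overlap, and null embryo 2 was again the lowest. The means were 32.5 ± 4.50 FPKM in wild type and 16.2 ± 3.93 FPKM in Sp8 null (SD, n = 3 each), a ratio of 2.01. The log2 fold change was -0.98 (SE 0.17, 95% interval -1.39 to -0.57; limma adjusted p = 0.0188). The size of this fall held in each fit but the call did not: the limma adjusted p was 0.0601 without null embryo 1, 0.0807 without wild-type embryo 2 and 0.0576 without wild-type embryo 3, with log2 fold changes of -1.0, -0.88 and -1.0.

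Lmx1b moved the other way. Its level was 7.34, 5.16 and 5.35 FPKM in the wild-type libraries and 11.9, 17.7 and 11.5 FPKM in the null libraries. Every null library was above every wild-type library, with the highest value in null embryo 2. The means were 5.95 ± 1.21 FPKM in wild type and 13.7 ± 3.45 FPKM in Sp8 null (SD, n = 3 each), a ratio of 2.30. The log2 fold change was 1.07 (SE 0.18, 95% interval 0.64 to 1.50; limma adjusted p = 0.0166). Without wild-type embryo 2 the log2 fold change was 0.99 (limma adjusted p = 0.0768), and without wild-type embryo 3 the limma adjusted p was 0.0581. Among all tested genes 6.83% were called, 5.15% lower and 1.68% higher in Sp8 null. Groups did not overlap for 29.8% of tested genes, 21.1% lower and 8.63% higher, so separation of the groups alone is common in this comparison.

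**Figure D1:**
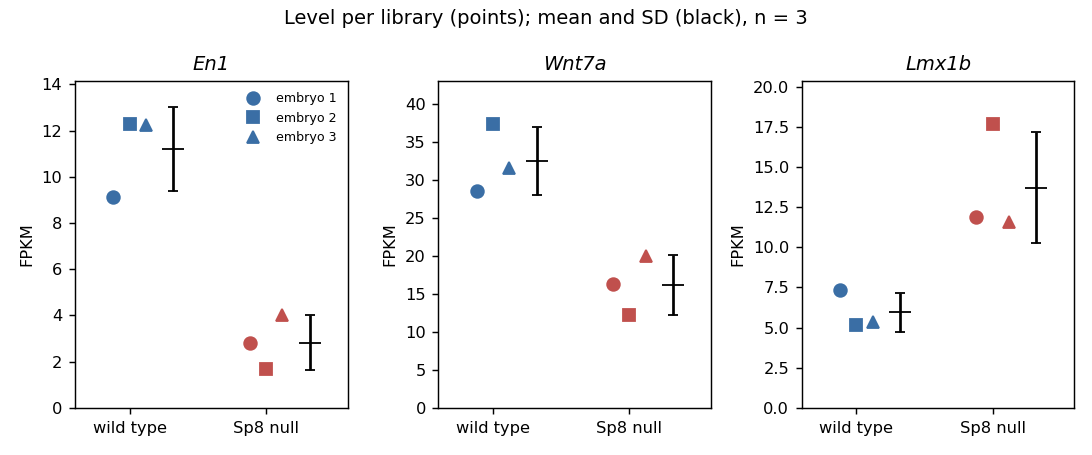
FPKM of En1, Wnt7a and Lmx1b (vertical axes, starting at 0) in each library, with circles, squares and triangles for embryos 1, 2 and 3 and black bars for the mean and SD of 3 libraries. En1 and Wnt7a are lower and Lmx1b higher in all 3 Sp8 null libraries, and null embryo 2 is the most extreme library for each gene.

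The authors' deposited table lists signed fold changes of -2.27 for En1, -2.15 for Wnt7a and 2.0 for Lmx1b, and a p-value of 0 for each. The ratio of the group means in the authors' deposited table, wild type over null, was 3.87 for En1 and 2.22 for Wnt7a, and null over wild type it was 2.35 for Lmx1b. How the signed fold change was computed is not stated, and for each of the 3 genes it was smaller in size than the ratio of the means in the authors' deposited table, with the widest gap for En1.

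The order of the 3 genes by level differed between the genotypes. In wild type Wnt7a was the highest (28.5 to 37.4 FPKM), En1 was next (9.12 to 12.3 FPKM) and Lmx1b the lowest (5.16 to 7.34 FPKM), with no overlap between neighbours in that order. In Sp8 null the range of Lmx1b (11.5 to 17.7 FPKM) overlapped that of Wnt7a (12.2 to 20.0 FPKM), and En1 was the lowest (1.66 to 4.02 FPKM). Among 12133 tested genes, the wild-type mean of Wnt7a had rank 1691, that of En1 rank 4598 and that of Lmx1b rank 6801.

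Because En1 and Wnt7a mark opposite faces of the ectoderm, their balance was computed within each library. The FPKM of Wnt7a over that of En1 was 3.13, 3.04 and 2.58 in the wild-type libraries and 5.82, 7.32 and 4.98 in the null libraries. The ratio was thus higher in each null library, with means of 2.92 ± 0.294 and 6.04 ± 1.19 (SD, n = 3 each). On the log2(FPKM + 1) scale, Wnt7a minus En1 was larger by 0.73 in Sp8 null (exact permutation test over libraries, two-sided p = 0.10, the smallest that 3 against 3 can give). The fall of En1 exceeded that of Wnt7a in these libraries.

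Lmx1b is known from limb mesenchyme, and the ectoderm was dissected by hand, so mesenchymal transcripts were read beside it. Of 22 limb mesenchyme markers 16 were past the filter. Their median log2 fold change was 0.22, with 9 higher and 7 lower, and their summed level over all 22 was 180 to 305 FPKM in null and 165 to 227 FPKM in wild type. None of the 22 was at 0 in every library. Prrx1, a homeobox gene that marks limb mesenchyme, was at 13.6, 53.3 and 11.95 FPKM in the null libraries and at 16.5, 3.92 and 9.93 FPKM in the wild-type libraries. Null embryo 2 thus stood apart for Prrx1, and the groups overlapped. Over all 22 markers, 3 were higher in every null library than in every wild-type library (Col3a1, Osr1 and Sox9) and 3 were lower (Pdgfra, Shh and Tbx3), of which limma called Sox9 higher and Tbx3 lower. Osr1 and Shh were under the filter. Among all tested genes, 8.63% were higher and 21.1% lower in every null library. Col3a1, a fibrillar collagen, was at 10.4, 34.4 and 7.61 FPKM in the null libraries and at 7.43, 2.19 and 5.32 FPKM in the wild-type libraries (log2 fold change 1.45, limma adjusted p = 0.163). Osr1 was at 0.874 to 1.88 FPKM in null and 0.116 to 0.723 FPKM in wild type. Pdgfra, a growth factor receptor of mesenchyme, was at 6.37, 19.5 and 6.01 FPKM in the null libraries and at 23.8, 19.8 and 21.4 FPKM in the wild-type libraries (log2 fold change -1.15, limma adjusted p = 0.12).

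Within each genotype the dorsoventral genes followed this marker level. The mean log2(FPKM + 1) of the 16 markers was 2.75, 3.72 and 2.69 in the null libraries and 3.27, 2.46 and 2.75 in the wild-type libraries. In both genotypes the library with the highest mean, null embryo 2 and wild-type embryo 1, had the most Lmx1b and the least En1 and Wnt7a, and the library with the lowest mean, null embryo 3 and wild-type embryo 2, had the least Lmx1b and the most En1 and Wnt7a. Between genotypes the order was different. Null embryos 1 and 3 had lower marker means than wild-type embryo 1 (2.75 and 2.69 against 3.27) and more Lmx1b (11.9 and 11.5 against 7.34 FPKM). Lmx1b minus the marker mean was 0.94, 0.50 and 0.96 in the null libraries and -0.21, 0.17 and -0.08 in the wild-type libraries. The groups did not overlap, and the difference was 0.84 (exact permutation test over libraries, two-sided p = 0.10, the smallest possible). With the marker mean as a covariate across all genes, the log2 fold change of Lmx1b was 0.94 (limma adjusted p = 0.00167), that of Wnt7a -0.87 (0.00402) and that of En1 -1.56 (0.00136). The marker mean was 3.05 ± 0.58 in null and 2.83 ± 0.41 in wild type (SD, n = 3 each). It averages markers that differed in opposite directions, such as Sox9 (log2 fold change 1.03), Tbx3 (-0.81) and Pdgfra (-1.15). This fit and the difference above thus cannot show how much mesenchyme each library held. Whether mesenchyme accounts for the rise of Lmx1b was not tested. With no covariate and without null embryo 2, the log2 fold changes of Lmx1b, Wnt7a and En1 were 0.88, -0.81 and -1.47 (limma adjusted p = 0.0246, 0.0263 and 0.00545).

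**Figure D2:**
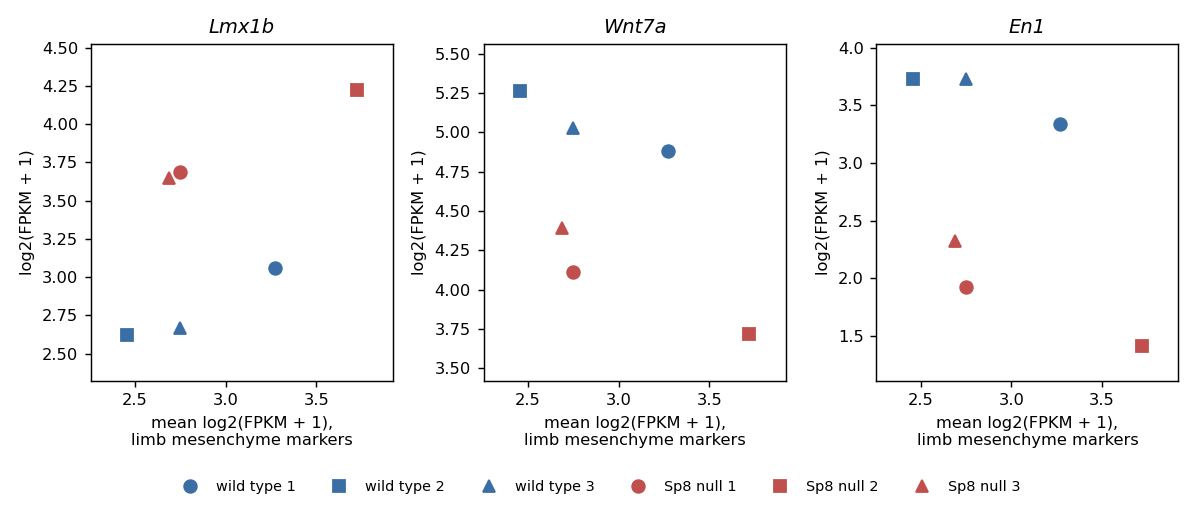
Level of Lmx1b, Wnt7a and En1 (vertical axes, log2(FPKM + 1)) against the mean log2(FPKM + 1) of 16 limb mesenchyme markers (horizontal axes), 1 point per library, blue for wild type and red for Sp8 null. Within each genotype Lmx1b is highest and the other genes are lowest where the marker mean is highest (3.72 in null embryo 2, 3.27 in wild-type embryo 1), while null and wild-type points with marker means of about 2.75 differ in all 3 genes.

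The summed markers of 4 other cell types overlapped between the groups, and those of macrophages, the lowest of the 5 lists, did not. The summed level of 4 macrophage markers was 0.694 to 1.68 FPKM in null and 0.239 to 0.276 FPKM in wild type, and none passed the filter. The sum of 6 erythroid markers was 61.9 to 161 FPKM in null and 11.6 to 422 FPKM in wild type. Sums of 6 endothelial markers were 2.51 to 4.35 and 2.05 to 2.97 FPKM, those of 4 muscle progenitor markers 15.0 to 17.7 and 11.3 to 15.2 FPKM, and those of 4 neural crest and glial markers 9.79 to 11.6 and 9.16 to 10.2 FPKM, null first. A single gene carried each of these sums. Egfl7 made up most of the endothelial sum. Met made up most of the muscle progenitor sum, with Pax3 at most 0.649 FPKM and Lbx1 and Myf5 lower. Erbb3 made up most of the neural crest and glial sum, with Sox10 at most 0.102 FPKM. Under the filter, Pecam1 was at 0.154 to 0.358 FPKM in null and 0.0466 to 0.123 FPKM in wild type. Cdh5 was at 0.0242 to 0.359 FPKM in null and at 0 in wild type. Both were thus higher in every null library, and 0 of the 6 endothelial markers were lower in every null library. Limma called 0 of the 8 tested markers of these 5 lists, with 1 (Met) at an unadjusted p under 0.05, and their part in the changes of the dorsoventral genes was not tested.

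The transcripts around each gene were then read. Within 500 kb of En1, 2 other genes were tested with limma and 0 were called, and 0 had an unadjusted p under 0.05. Around Wnt7a, 12 were tested with limma and 0 were called, with 3 at an unadjusted p under 0.05 and log2 fold changes of -0.34 to 0.48. Groups did not overlap for 3 of the 12 around Wnt7a and for 0 of the 2 around En1. Around Lmx1b, 9 were tested and 2 were called, C130021I20Rik and Gm38011, both higher in Sp8 null. Of the 9, 5 had an unadjusted p under 0.05, and groups did not overlap for 5. Among all tested genes 6.83% were called and 29.8% did not overlap. The 7 not called had log2 fold changes of -0.47 to 0.47.

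C130021I20Rik (ENSMUSG00000052951) is annotated as antisense RNA on the plus strand of chromosome 2, at 33641193 to 33646354. It starts 682 bases upstream of the annotated start of Lmx1b and is transcribed away from it, and its start lies inside the Lmx1b stretch printed above. Its level was 5.16, 3.23 and 3.86 FPKM in the wild-type libraries and 8.58, 15.6 and 8.12 FPKM in the null libraries. The groups did not overlap, and null embryo 2 was the highest, as for Lmx1b. The log2 fold change was 1.17 (SE 0.24; limma adjusted p = 0.0342), and the call was lost without null embryo 1 (limma adjusted p = 0.0616), wild-type embryo 2 (0.132) or wild-type embryo 3 (0.0863). C130021I20Rik was past the threshold in 12 of 19 alternatives. Its call was also lost with no filter (limma adjusted p = 0.128) and with the number that opens the sample name as covariate (0.0575). The same held with the embryo number as a block (0.0752) and in the 4 libraries whose sample name starts with 5 (0.0794). Gm38011 (ENSMUSG00000104403) is annotated as TEC, a class of unverified transcripts, at 33614398 to 33614676 in an intron of Lmx1b on the other strand. It was at 1.74, 2.22 and 1.46 FPKM in the null libraries and at 0.249, 0 and 0.939 FPKM in the wild-type libraries (log2 fold change 1.05, SE 0.24; limma adjusted p = 0.0466). It was past the threshold in 2 of 14 alternatives, with limma adjusted p-values of 0.0187 to 0.155 over the 14. The call was lost under each of the 3 scalings, and with a pseudocount of 0.1 the log2 fold change was 2.51 (limma adjusted p = 0.104). It was also lost without wild-type embryo 1 (limma adjusted p = 0.117) or 2 (0.135), and Gm38011 was past the filter in 3 of the 6 fits that left out 1 library. All wild-type values of Gm38011 were under 1 FPKM. It thus passed the filter through the null libraries alone, the group where it was higher. Whether reads were assigned by strand was not stated, so reads from unspliced Lmx1b RNA and from Gm38011 cannot be told apart. Gm38011 was named after its values were seen.

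**Figure D3:**
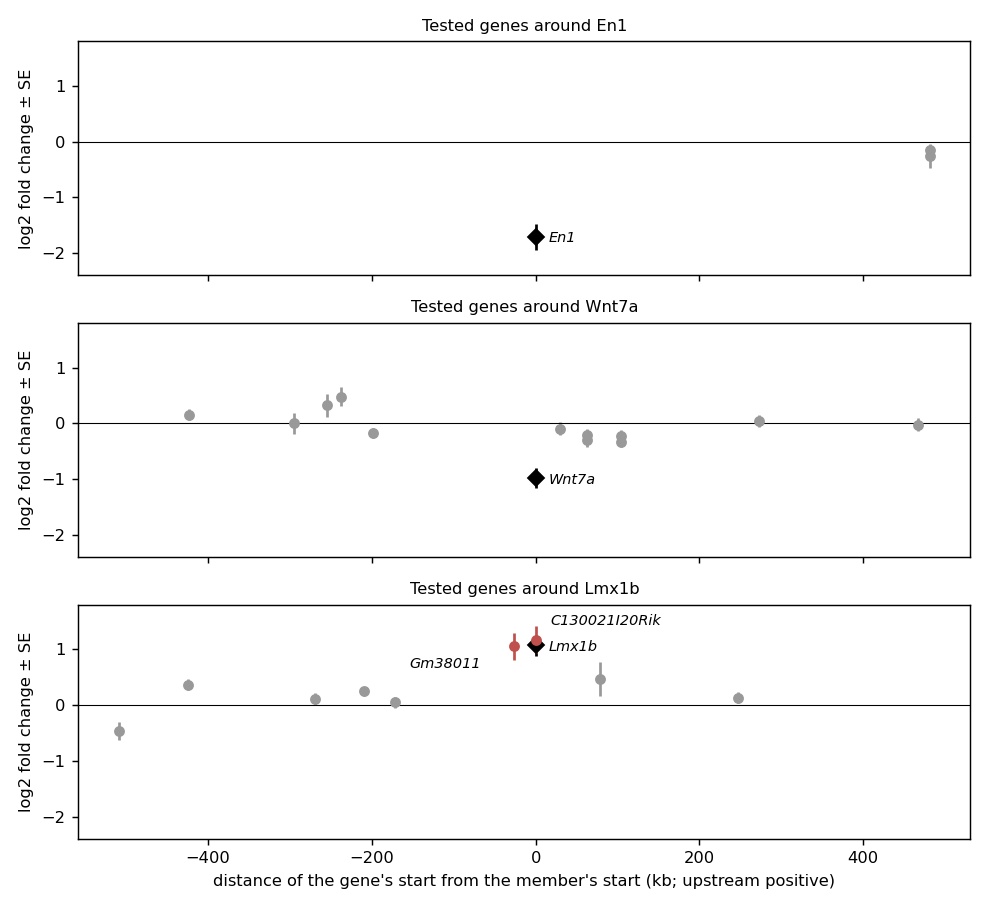
Log2 fold change with SE (vertical axes, Sp8 null minus wild type) of tested genes within 500 kb of En1, Wnt7a and Lmx1b, against the distance of their starts in kb, upstream positive, with the central gene as a black diamond, called neighbours in red and others in grey. The grey neighbours lie between -0.47 and 0.48, and C130021I20Rik (1.17) and Gm38011 (1.05) lie beside Lmx1b (1.07).

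The paralogs of the 3 genes were examined next. Wnt7b, the closest relative of Wnt7a, was at 13.2, 11.6 and 13.6 FPKM in the wild-type libraries and at 10.2, 8.22 and 9.64 FPKM in the null libraries. The groups did not overlap, but the log2 fold change of -0.42 (SE 0.10) did not pass over all genes (limma adjusted p = 0.0569). It passed in 2 of 19 alternatives, with genes of at least 5 FPKM on average (limma adjusted p = 0.0459) and with scaling by ectoderm markers (0.0425). The authors' deposited table gave Wnt7b a fold change of -1.32 with a p-value of 1.9e-05, from a test that is not named. Added together, Wnt7a and Wnt7b came to 45.3 ± 3.60 FPKM in wild type and 25.5 ± 4.72 FPKM in Sp8 null (SD, n = 3 each). Lmx1a, a paralog of Lmx1b, was under the filter, at 0.257, 0.262 and 0.317 FPKM in the wild-type libraries and at 0.102, 0.0849 and 0.0917 FPKM in the null libraries. It was thus lower in each null library, the opposite of Lmx1b, and the authors' deposited table gave it a fold change of -1.84 with a p-value of 0.000217. En2, the paralog of En1, was listed at 0 in 5 libraries and at 0.00784 FPKM in wild-type embryo 2.

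A list of 48 genes around this circuit was read by role, and 40 of them were tested. The list was chosen with earlier results of these data known, so its comparison with all tested genes is a description. Of the 40 tested list genes, 8 were called lower and 1 higher in Sp8 null (limma adjusted p under 0.05), against 5.15% and 1.68% of all tested genes. The 8 include Sp8 itself and Dkk1, which passed the filter through the wild-type libraries alone. The median log2 fold change was -0.13 over the list and -0.06 over all tested genes. Groups did not overlap for 15 of the 40 tested list genes that were lower and 4 that were higher, against 21.1% and 8.63% of all tested genes. Of the 8 list genes under the filter, 4 more were lower (Smad9, Lmx1a, Sp9 and Shh) and 1 was higher (Fzd5) in every null library. Without wild-type embryo 2 the list held 5 calls.

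Among the BMP ligands, which are known to act upstream of En1, Bmp4 fell from 132, 123 and 122 FPKM in the wild-type libraries to 41.1, 32.5 and 39.4 FPKM in the null libraries. Its log2 fold change was -1.72 (SE 0.10; limma adjusted p = 0.000124), and it was called in each fit that left out 1 library. Bmp7 (log2 fold change -0.11, limma adjusted p = 0.459) and Bmp2 (-0.032, 0.939) did not pass, and the mean difference of Bmp2 was above 0 under median-of-ratios and upper-quartile scaling. Of the 3 BMP receptors limma called 0, with 1 at an unadjusted p under 0.05. Bmpr1a, the receptor through which BMPs are known to induce En1, was at 50.2 to 53.6 FPKM in null and 53.9 to 59.4 FPKM in wild type. Smad1, a transducer of BMP signals, was the 1 list gene called higher. Of the other transducers, Smad5 was lower in every null library (34.7 to 37.1 FPKM against 40.7 to 45.8 FPKM, with a limma adjusted p of 0.0738 for a log2 fold change of -0.26), as was Smad9 under the filter (0.0161 to 0.0266 against 0.105 to 0.167 FPKM), and Smad4 overlapped. Smad1 rose from 10.7, 10.6 and 9.27 FPKM in the wild-type libraries to 15.3, 15.9 and 14.6 FPKM in the null libraries, with a log2 fold change of 0.54 (limma adjusted p = 0.0116, and 0.0513 without wild-type embryo 2).

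On the Wnt side, Wls, the carrier that takes Wnt proteins to the cell surface, fell from 58.7 ± 2.40 to 41.9 ± 2.44 FPKM (SD, n = 3 each; log2 fold change -0.48, limma adjusted p = 0.00954, and 0.0558 without wild-type embryo 2). Wnt3, the ectodermal ligand of the canonical pathway, had a log2 fold change of -0.52 (limma adjusted p = 0.0373). This call was lost when 1 of 5 libraries was left out, the exception being null embryo 3, with limma adjusted p-values of 0.0366 to 0.148 over the 6 fits. Fzd1, a Wnt receptor, fell from 46.2, 55.7 and 51.8 FPKM in the wild-type libraries to 11.1, 11.1 and 13.1 FPKM in the null libraries. Its log2 fold change of -2.03 (SE 0.10; limma adjusted p = 5.22e-05) was the largest of the list after Sp8, and the other 5 tested receptors were not called. Tcf7, a transcription factor of the canonical pathway, fell with a log2 fold change of -1.67 (limma adjusted p = 0.000299), while Ctnnb1 (0.051) and Lef1 (0.16) had log2 fold changes that did not pass (limma adjusted p = 0.792 and 0.37). The secreted Wnt inhibitor Dkk1 fell from 2.29 ± 0.384 to 0.682 ± 0.168 FPKM (SD, n = 3 each; log2 fold change -0.97, limma adjusted p = 0.00829), and it was past the filter in 3 of the 6 fits that left out 1 library. All null values of Dkk1 were under 1 FPKM. It thus passed the filter through the wild-type libraries alone, the group where it was higher.

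Groucho corepressors are known partners of En1. Tle4 fell from 14.4, 13.9 and 13.7 FPKM in the wild-type libraries to 6.53, 7.16 and 7.14 FPKM in the null libraries with a log2 fold change of -0.92 (limma adjusted p = 0.000673). The other 4 tested cofactors were not called, and the most abundant corepressor, Tle3, was at 33.5, 32.02 and 26.6 FPKM in the wild-type libraries and at 43.2, 40.8 and 38.1 FPKM in the null libraries (limma adjusted p = 0.0569). Of the 5 genes listed with Lmx1b (Ldb1, Ldb2, Rlim, Lhx2 and Lhx9) limma called 0, with 0 at an unadjusted p under 0.05. Ldb1, the cofactor that LIM homeodomain proteins bind, was at 20.6 to 24.7 FPKM in null and 22.5 to 26.7 FPKM in wild type. Ldb2 was at 21.6 FPKM in null embryo 2 and at 2.64 to 7.21 FPKM in the other libraries, so it was highest in the library with the most Prrx1. Of 3 ridge boundary genes and 2 hedgehog pathway genes tested, limma called 0, with 1 of each at an unadjusted p under 0.05. Of the list genes under the filter, Shh was at 0.0173 to 0.105 FPKM in null and 0.171 to 0.495 FPKM in wild type, and Sp9 at 0.0193 to 0.0266 and 0.437 to 0.775 FPKM.

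**Figure D4:**
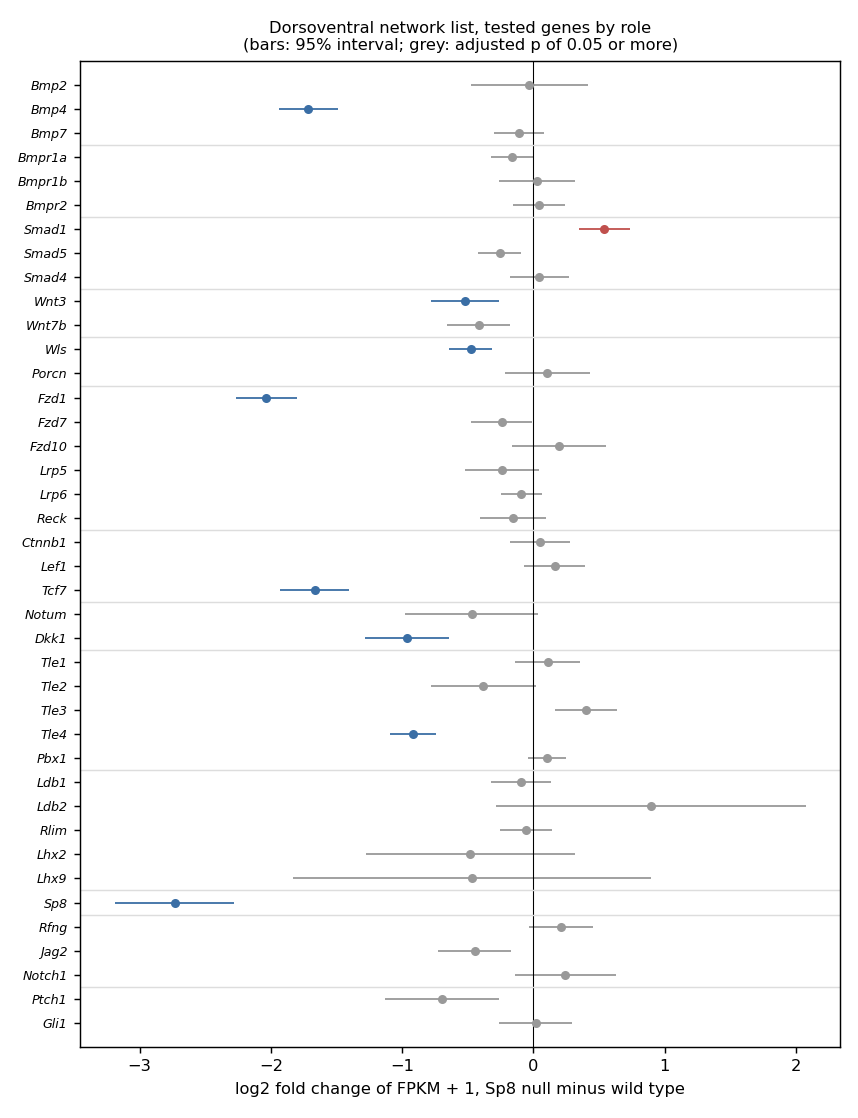
Log2 fold change (horizontal axis, Sp8 null minus wild type) with its 95% interval for the 40 tested genes of the list, grouped by role between grey lines, blue for called lower, red for called higher and grey for not called. Sp8 (-2.73), Fzd1 (-2.03), Bmp4 (-1.72) and Tcf7 (-1.67) lie farthest to the left, and Smad1 (0.54) is the 1 called gene on the right.

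The genes most like each member across the 6 libraries were found by the root-mean-square difference between log2(FPKM + 1) profiles, each centred on its own mean. For Lmx1b the nearest was Smoc2, a secreted matrix protein, at a difference of 0.0385, followed by Itm2a (0.0785), C130021I20Rik (0.115), Cdh13 (0.127) and Phactr3 (0.133). Smoc2 was at 3.06, 2.07 and 2.22 FPKM in the wild-type libraries and at 5.12, 8.0 and 5.41 FPKM in the null libraries, with its highest value in null embryo 2 as for Lmx1b. For Wnt7a the nearest was Acsl4, an acyl-CoA synthetase (0.0638), followed by Prr5 (0.114), Arhgef3 (0.119), Mid2 (0.127) and Zim1 (0.128). For En1 the nearest were Snap91 (0.125), the homeobox gene Dlx1 (0.149), Gm11532 (0.15), Thbs1 (0.177) and the homeobox gene Dlx2 (0.178). Dlx1 was at 10.7 ± 0.580 FPKM in wild type and at 2.55 ± 1.03 FPKM in Sp8 null (SD, n = 3 each), with its lowest value, 1.39 FPKM, in null embryo 2 as for En1. These genes were picked for their likeness, so their differences between genotypes are a description.

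**Figure D5:**
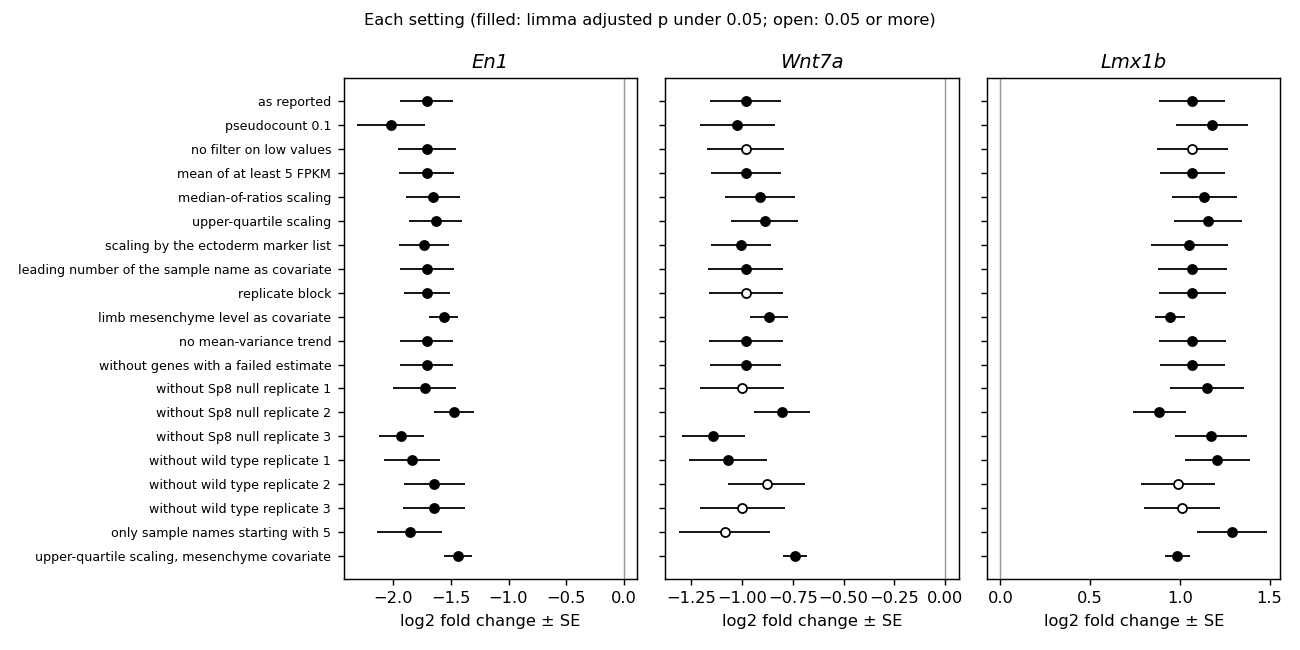
Log2 fold change ± SE of En1, Wnt7a and Lmx1b (horizontal axes, Sp8 null minus wild type) as reported and under each of 19 other settings, filled where the limma adjusted p is under 0.05 and open where it is not. En1 stays between -2.02 and -1.44, Wnt7a between -1.14 and -0.74 and Lmx1b between 0.88 and 1.29, with open points for Wnt7a and Lmx1b and none for En1.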

How the data were processed

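The authors deposited FPKM per gene for 6 libraries with a status for each estimate, and 18 of 18 estimates of the 3 genes had the status OK. Gene models were those of Ensembl build 87, per the file headers. The submitters' processing notes name GRCm38, FastQC, SAMtools, TopHat2, Cufflinks and DESeq2, with no role given. The authors' deposited table also held normalized group means (signal), a signed fold change (score) and a p-value, whose test and adjustment are not given in the sources used here. Its control column was read as wild type and its sample column as Sp8 null.

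Genes that reached 1 FPKM in 3 or more libraries were fitted as log2(FPKM + 1) with limma 3.58.1 in R 4.3.3, with genotype as the only term and a mean-variance trend, and p-values were adjusted by Benjamini-Hochberg over 12133 genes. The fit was tested on simulated data. FPKM keeps no read counts, so no count test was run and depth is relative only. Single differences were tested by exact permutation over libraries. Named genes were the members, Sp8, the ligands, paralogs and called genes of the list, the 5 genes most like each member, and the called and most abundant markers. Other genes (Prrx1, Col3a1, Osr1, Pdgfra, Pax3, Sox10, Gm38011, Smad4, Smad5, Smad9, Fzd5, Bmpr1a, Ctnnb1, Lef1, Tle3, the Lmx1b partners, Shh and Sp9) were named after their values were seen. So were Grem1, Twist1, Tbx5, Pecam1, Cdh5, Krt5, Krt14 and Perp. The members and lists were chosen with earlier results of these data known. Alternatives covered the pseudocount, filters, scaling, covariates, the embryo number as a block and each library left out. Identifiers, coordinates and exon overlaps came from GENCODE M21 on GRCm38, which held 49109 of the 49452 identifiers, and promoters from RefSeq on GRCm38.p6, where 3 of 3 genes matched.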

Additional observations from a re-analysis of the deposited data

How the results depend on the processing

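En1, Wnt7a and Lmx1b kept their direction under all 19 alternatives, and En1 stayed past the threshold in all 19, Lmx1b in 16 and Wnt7a in 13. With no filter the log2 fold changes of Wnt7a (-0.98) and Lmx1b (1.07) had limma adjusted p-values of 0.0899 and 0.0817. With one replicate left out, Wnt7a ranged from -1.14 to -0.81 (limma adjusted p 0.0134 to 0.0807) and Lmx1b from 0.88 to 1.21 (0.0195 to 0.0768). With the 4 libraries whose sample name starts with 5, an alternative chosen after seeing the data, Wnt7a was -1.09 (0.0946), En1 -1.86 (0.0447) and Lmx1b 1.29 (0.0435); names starting with 4 occur once per genotype, which leaves no spread to test. Embryo numbers name the samples without pairing them: deviations of same-numbered libraries correlated at -0.16, -0.14 and -0.07. With the embryo number as a replicate block Wnt7a was -0.98 (limma adjusted p = 0.0512) and 328 genes were called. Against 829 calls reported, there were 342 without the filter, 545 with the number that opens the sample name as covariate, 213 to 665 with one replicate left out and 163 in the 4 libraries. The share of calls that were higher was 24.6% as reported. It was 37.2%, 41.7% and 16.7% under median-of-ratios, upper-quartile and ectoderm marker scaling, and 14.6% to 41.3% with one replicate left out. The list count of 9 was 5 to 9 with one replicate left out and 5 in the 4 libraries, 10 under median-of-ratios and upper-quartile scaling, 11 with the mesenchyme covariate and 12 under ectoderm marker scaling. Bmp2 (-0.032) turned to 0.031, 0.051 and 0.014 under median-of-ratios scaling, upper-quartile scaling and the mesenchyme covariate, to 0.045 in the 4 libraries and to 0.12 with upper-quartile scaling and the mesenchyme covariate, and ranged from -0.24 to 0.087 with one replicate left out. Cldn6 (0.047) ranged from -0.058 to 0.23 and Hbb-y (0.75) from -0.37 to 2.21 with one replicate left out, and Cldn6 was -0.088 and Egfl7 -0.0022 in the 4 libraries. The cause was not tested. The difference of Lmx1b from the marker mean was not run without a pseudocount. Depth is known only in relative terms, so low values such as those of Gm38011 and Lmx1a carry no counting interval.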

Other observations

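Some markers that served to check the tissue changed with genotype. Sox9, listed with limb mesenchyme and also known from other tissues, rose from 7.16, 6.84 and 5.49 FPKM in the wild-type libraries to 15.0, 13.7 and 14.2 FPKM in the null libraries (log2 fold change 1.03, SE 0.10; limma adjusted p = 0.00182). Its values did not follow Prrx1, which was highest in null embryo 2. Tbx3, a T-box repressor, fell from 11.3, 10.6 and 9.05 FPKM to 5.91, 5.03 and 5.48 FPKM in the same order (log2 fold change -0.81, limma adjusted p = 0.00592). Both were called in each fit that left out 1 library.

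Among the ectoderm markers, Tfap2a, a transcription factor of surface ectoderm, was called higher at a log2 fold change of 0.52 (limma adjusted p = 0.0163), and Epcam, an epithelial adhesion protein, was called lower at -0.53 (limma adjusted p = 0.0313). Perp (log2 fold change -0.37, limma adjusted p = 0.0626), Krt5 (-0.28, 0.080) and Krt14 (-0.39, 0.110) were also lower in every null library but were not called. Among all tested genes, 21.1% were lower and 8.63% higher in every null library. Without wild-type embryo 1, 2 or 3 the limma adjusted p of Tfap2a was 0.0608, 0.056 and 0.0546, and that of Epcam was 0.0719, 0.132 and 0.0693. Epcam was also at 0.0856 without null embryo 1 and at 0.0585 without null embryo 2. The most abundant marker of the ectoderm list, Cldn6, had means of 338 ± 70.5 and 323 ± 29.4 FPKM, null first (SD, n = 3 each), and that of the mesenchyme list, Meis2, 67.7 ± 6.92 and 57.7 ± 6.11 FPKM. Those of the other lists were Hbb-y (45.1 ± 20.7 and 70.5 ± 106 FPKM, null first), Egfl7 (2.77 ± 0.463 and 2.40 ± 0.524), Met (15.9 ± 1.57 and 12.7 ± 2.06), Erbb3 (9.63 ± 0.811 and 8.94 ± 0.549) and the macrophage gene Fcer1g (0.839 ± 0.353 and 0.156 ± 0.114).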
